A study of Homo sapiens with 12 samples.

Results

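The levels of 10 stress chaperone genes were followed through every library of an RNA sequencing study of Jurkat cells: HSPA6, HSPA1A, HSPA1B, HSPA1L, HSPA8 and HSPH1 of the HSP70 and HSP110 families, HSP90AA1 and HSP90AB1 of the HSP90 family, and the small heat shock protein genes HSPB1 and CRYAB. These 10 genes were chosen by symbol, out of 56098 genes listed in either of 2 expression tables, after their differences between groups had been seen in an earlier analysis of the same values. All 10 are in both tables, which hold 55514 and 44389 genes. Their levels and group differences are therefore given as a description, and no count over them supports a conclusion.

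Jurkat cells come from a human T cell leukaemia, and the study compared them with and without ZNF683, the gene of the zinc finger factor Hobit. One table holds 3 libraries whose genotype label is doxycycline-induced ZNF683 and 3 Mock libraries, and whether Mock cells had doxycycline is not labelled. The other holds 3 Dox+ and 3 Dox- libraries of cells titled Hobit, with doxycycline (labelled 1 ug/uL) or without it. The labels name no promoter, vector or clone. They also leave unsaid whether replicates are separate cultures, so the tests cover the spread between libraries, and that spread may be technical. Values are TPM, an abundance per transcript length scaled to a fixed total per library. TPM keeps no read number, so the depth is unknown and no counting interval can be given.

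HSP70 proteins bind unfolded stretches of other proteins and release them with the help of J-domain and nucleotide exchange partners, HSP90 proteins act later on clients such as kinases and receptors, and small heat shock proteins hold unfolded proteins without using ATP. HSPA8, HSP90AB1 and HSPH1 are made in most cells at all times, while HSPA6, HSPA1A and HSPA1B are the classical genes switched on by heat. Heat shock factor HSF1 binds DNA at inverted repeats of the unit GAA (TTC on the other strand), the heat shock element.

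ZNF683 itself was low everywhere, between 0.115 and 1.76 TPM. Its groups overlapped in the ZNF683 table, and in the other table Dox+ (0.453 to 0.774 TPM) lay just above Dox- (0.115 to 0.451 TPM). The summed level of 9 T cell line markers lay between 3850 and 4456 TPM in the 6 libraries of the ZNF683 table and between 3554 and 3864 TPM in Dox+, and it was 1571, 1461 and 3158 TPM in Dox- libraries 1, 2 and 3. The transcript AL135790.1 alone held 50.7% of the TPM of Dox- library 1, which lowers every other value there. Rescaling by median-of-ratios size factors moved the median log2 difference of all tested genes between Dox+ and Dox- from 0.32 to 0.00. In Dox- library 2, HSPA6, HSPA1A, HSPA1B, HSP90AA1 and CRYAB stood far above the other libraries. The group differences of the 10 genes are also given without that library. Without it, 13667 of the 14536 genes that averaged 1 TPM over the other 5 libraries were higher in Dox+ as deposited. Their median log2 difference was 0.39.

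Bases upstream of annotated starts of these genes are shown first, because most of the 10 stood high together in Dox- library 2. Promoter windows of 300 bases, 250 before the start and 50 from the start on, came from RefSeq on GRCh38.p14 and matched 9 of the 10 genes in 12 windows. CRYAB had none. The search was for 2 alternating units, GAANNTTC or TTCNNGAA, each of which reads the same on both strands, and for 3 units, GAANNTTCNNGAA or TTCNNGAANNTTC. The 3-unit forms are each other's reverse complement, and each contains both of the shorter ones. Capitals mark the matching letters, and positions count from the annotated start base as 0.

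HSPA6 (chr1:161524320-161524518, plus strand, positions -220 to -22) is shown as the member with the largest ratio of Dox- library 2 to the median of the other 5 libraries (on TPM + 1), with a 2-unit and a 3-unit match:
HSPA6: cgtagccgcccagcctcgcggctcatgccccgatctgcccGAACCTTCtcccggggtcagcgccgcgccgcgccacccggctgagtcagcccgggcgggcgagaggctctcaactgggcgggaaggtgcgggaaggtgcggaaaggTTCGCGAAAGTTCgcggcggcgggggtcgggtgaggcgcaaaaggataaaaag
HSPA1A (chr6:31815397-31815463, plus strand) and HSPA1B (chr6:31827593-31827659, plus strand) are shown because they are neighbouring copies, and 66 of these 67 bases are identical:
HSPA1A: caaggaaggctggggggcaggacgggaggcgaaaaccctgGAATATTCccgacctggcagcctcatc
HSPA1B: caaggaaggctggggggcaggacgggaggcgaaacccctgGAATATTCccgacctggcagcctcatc
HSP90AA1 (chr14:102087104-102087133, minus strand) and HSP90AB1 (chr6:44247738-44247865, plus strand) are shown because these paralogs differed from each other in Dox- library 2, and both carry a 3-unit match:
HSP90AA1: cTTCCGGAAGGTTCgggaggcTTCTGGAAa
HSP90AB1: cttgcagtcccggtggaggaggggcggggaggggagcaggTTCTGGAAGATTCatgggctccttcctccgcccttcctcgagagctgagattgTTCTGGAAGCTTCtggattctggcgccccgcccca
HSPA8 (chr11:123062171-123062199, minus strand) and HSPB1 (chr7:76302451-76302538, plus strand) are shown as genes of moderate change with the same letters:
HSPA8: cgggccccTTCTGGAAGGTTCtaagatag
HSPB1: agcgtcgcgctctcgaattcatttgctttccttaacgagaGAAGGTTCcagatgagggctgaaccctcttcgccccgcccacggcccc

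The 3-unit letters were present in the windows of 4 of 9 genes (HSPA6, HSPA8, HSP90AA1 and HSP90AB1), against 0.490% of all 35116 promoter windows and 0.608% of the 27305 symbols they belong to. Any 2-unit match was present for 8 of 9 genes, against 13.5% of windows and 16.2% of symbols. GAANNTTC was in 8 of 9 genes against 8.21% of symbols, and TTCNNGAA in 4 of 9 against 9.46%. For HSP90AA1 the match was at 1 of 2 annotated starts and for HSP90AB1 at 1 of 3. The printed stretches of HSP90AA1, HSP90AB1 and HSPA8 lie inside the spans of these genes in GENCODE v29. Those of HSP90AA1 and HSPA8 lie wholly in annotated exons of the same gene. HSPH1 had neither in its window, which says only that those letters are not in those 300 bases. HSPA1L and HSPA1A are divergent neighbours whose starts lie 399 bases apart in GENCODE v29, and the single GAATATTC of the HSPA1L window is the same 8 bases, at chr6:31815437-31815444, as that of HSPA1A. Over their whole windows HSPA1A and HSPA1B were identical at 92.0% of aligned positions. A match is a description of the letters and not a measured binding site. The 9 genes were taken as heat shock protein genes, so nothing is read from their shares beside those of all promoters. The part of these letters in the levels of Dox- library 2 was not tested.

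**Figure D1:**
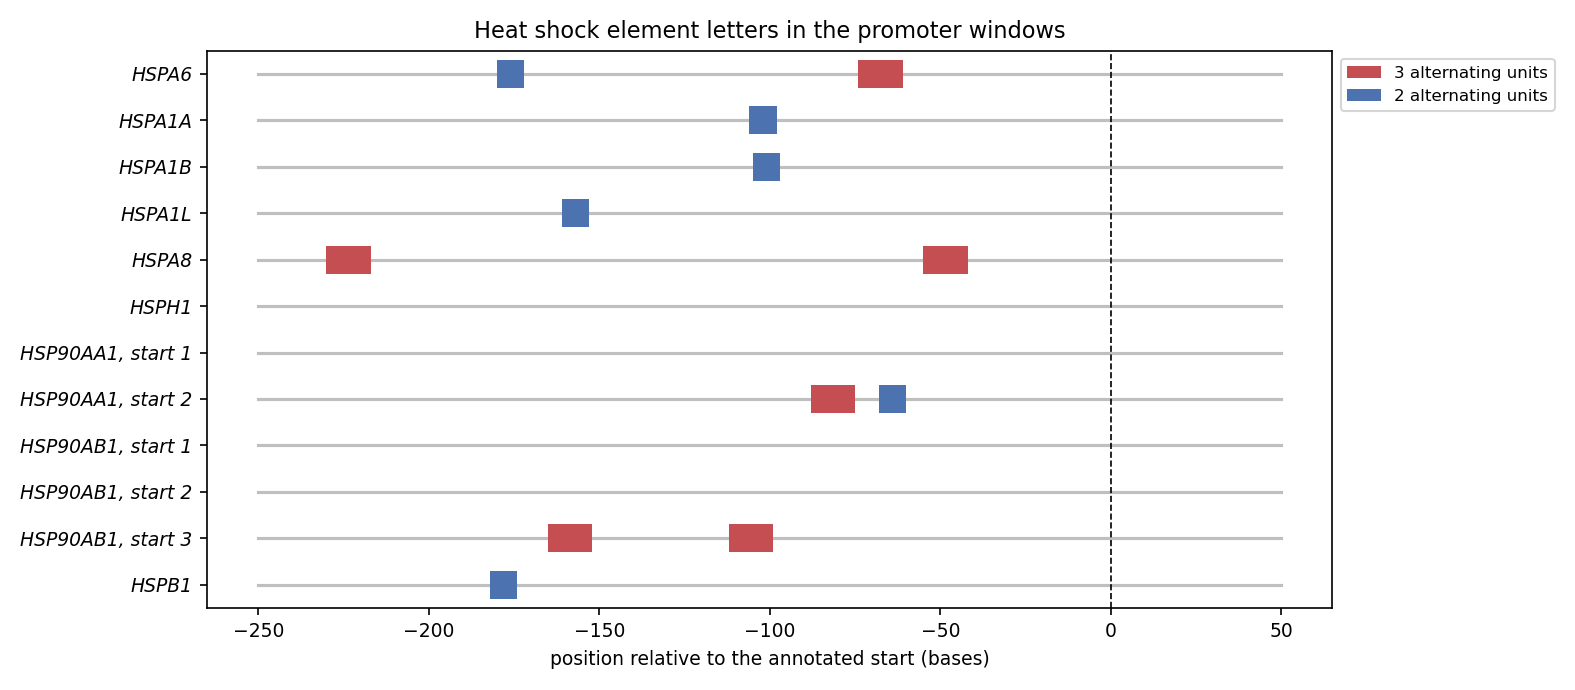
Map of the 12 promoter windows, drawn to scale, with position relative to the annotated start (bases) on the x axis and one line per annotated start. Red blocks are 3 alternating units and blue blocks are 2. HSPA6, HSPA8, HSP90AA1 and HSP90AB1 carry red blocks, and the HSPH1 window carries none of either colour.

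HSPA6 encodes a strictly stress-inducible HSP70, and lies as a single exon on chromosome 1, 161524540 to 161526910 (GENCODE v29, GRCh38). Libraries 1, 2 and 3 had 0.515, 0.399 and 0.618 TPM with ZNF683 and 6.85, 5.88 and 4.06 TPM in Mock. All 3 Mock libraries were above all 3 ZNF683 libraries, and the means were 0.511 ± 0.109 and 5.60 ± 1.41 TPM (SD, n = 3). On the log2(TPM + 1) scale, which understates differences of low genes, the difference was -2.11 ± 0.18 (limma SE). In the other table HSPA6 had 0.187, 0.183 and 0.351 TPM in Dox+ and 0.113, 637 and 0.341 TPM in Dox-. As deposited, Dox- library 1 lay below the Dox+ range and library 3 inside it, and library 2 alone was high, so the groups overlapped. After median-of-ratios rescaling Dox- library 1, at 0.195, lay inside the Dox+ range of 0.159 to 0.311. In bulk RNA a high level in a few cells and a moderate level in all cells cannot be told apart. The log2 difference of Dox+ minus Dox- was -2.99 with all libraries and 0.02 without Dox- library 2.

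HSPA6 shares sequence with HSPA7, an annotated pseudogene on the same chromosome: 56.6% of the 31-base words of its transcript occur in HSPA7. HSPA7 took at most 9.11% of the sum of both genes in any library of the doxycycline table and 4.13% in the ZNF683 table, and it had 9.92 TPM in Dox- library 2 against at most 0.0181 TPM in the other 5. Summing the pair gave log2 differences of -2.11 for ZNF683 against Mock and -3.01 for Dox+ against Dox-, beside -2.11 and -2.99 for HSPA6 alone.

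HSPA1A and HSPA1B encode the major inducible HSP70 and stand 9789 bases apart in the MHC class III region of chromosome 6, at 31815464 to 31817946 and 31827735 to 31830255, each with a single-exon transcript. They share 73.6% of the 31-base words of HSPA1A, so the division between them is uncertain. HSPA1B had 3.68, 3.63 and 2.75 TPM with ZNF683 and 5.90, 5.22 and 4.57 TPM in Mock, and HSPA1A had 0.252, 0.182 and 0.154 against 0.638, 0.534 and 0.371 TPM. In both genes every Mock library was above every ZNF683 library. The log2 differences were -0.52 ± 0.14 for HSPA1B (limma SE) and -0.34 for HSPA1A, and -0.57 for the sum of both.

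Between Dox+ and Dox-, HSPA1B had 6.22, 5.93 and 8.09 TPM in Dox+ and 2.95, 562 and 6.93 TPM in Dox-, and HSPA1A had 0.173, 0.103 and 0.361 against 0.0402, 37.0 and 0.455 TPM. Library 2 alone was far above Dox+. Dox- library 1 lay below the Dox+ range in both genes, and library 3 lay inside it for HSPA1B and just above it for HSPA1A. The log2 difference of HSPA1B was -1.76 with all libraries and 0.46 without Dox- library 2, and that of HSPA1A was -1.68 and -0.03.

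HSPA1L, a relative of HSPA1A known mainly from testis, was at most 0.0655 TPM in the ZNF683 table and at most 0.0237 TPM in the doxycycline table outside Dox- library 2, where it was 0.141 TPM. It was listed at 0 in Dox+ library 3. It lies on chromosome 6, 31809619 to 31815065, on the strand opposite to HSPA1A, and 4.38% of its 31-base words occur in HSPA1A. Its groups overlapped in both tables, and at this level no difference can be read.

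HSPA8 encodes the constitutive HSC70 (chromosome 11, 123057489 to 123063230). It had 702, 584 and 450 TPM with ZNF683 and 392, 446 and 653 TPM in Mock, so each group spanned most of the other's range (log2 difference 0.23 ± 0.22). In the other table it had 506, 513 and 658 TPM in Dox+ and 190, 1302 and 539 TPM in Dox-. Dox- library 2 was the highest of the table and library 1 the lowest. The log2 difference of 0.12 became 0.79 without library 2, where the median over all genes was 0.39, and -0.25 after median-of-ratios rescaling. SNORD14E, a small nucleolar RNA of 85 bases annotated inside HSPA8 (chromosome 11, 123058077 to 123058161), had 1334 TPM in Dox- library 2 and between 0.224 and 1.96 TPM in the other 5 libraries of that table. TPM per gene does not show whether such reads came from the small RNA or from the transcript around it. SNORD14D, also inside HSPA8, was listed at 0 in Dox- library 2 and at 4.02 TPM in Dox+ library 2. It was chosen for mention after its values were seen.

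HSPH1 encodes HSP105, a nucleotide exchange factor of HSP70 (chromosome 13, 31134974 to 31162388). It had 166, 132 and 107 TPM with ZNF683 and 96.3, 101 and 158 TPM in Mock, with overlapping groups and a log2 difference of 0.20 ± 0.22. Its values in Dox+ were 80.2, 96.5 and 111 TPM, and in Dox- they were 40.2, 327 and 115 TPM. Again library 2 was the highest and library 1 the lowest of the table, and the log2 difference of -0.27 became 0.47 without library 2. HSPH1 was at 0.158 to 0.251 times the TPM of HSPA8 in all 12 libraries, while HSPA1B ranged from 0.524% of HSPA8 in ZNF683 library 1 to 43.2% in Dox- library 2.

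**Figure D2:**
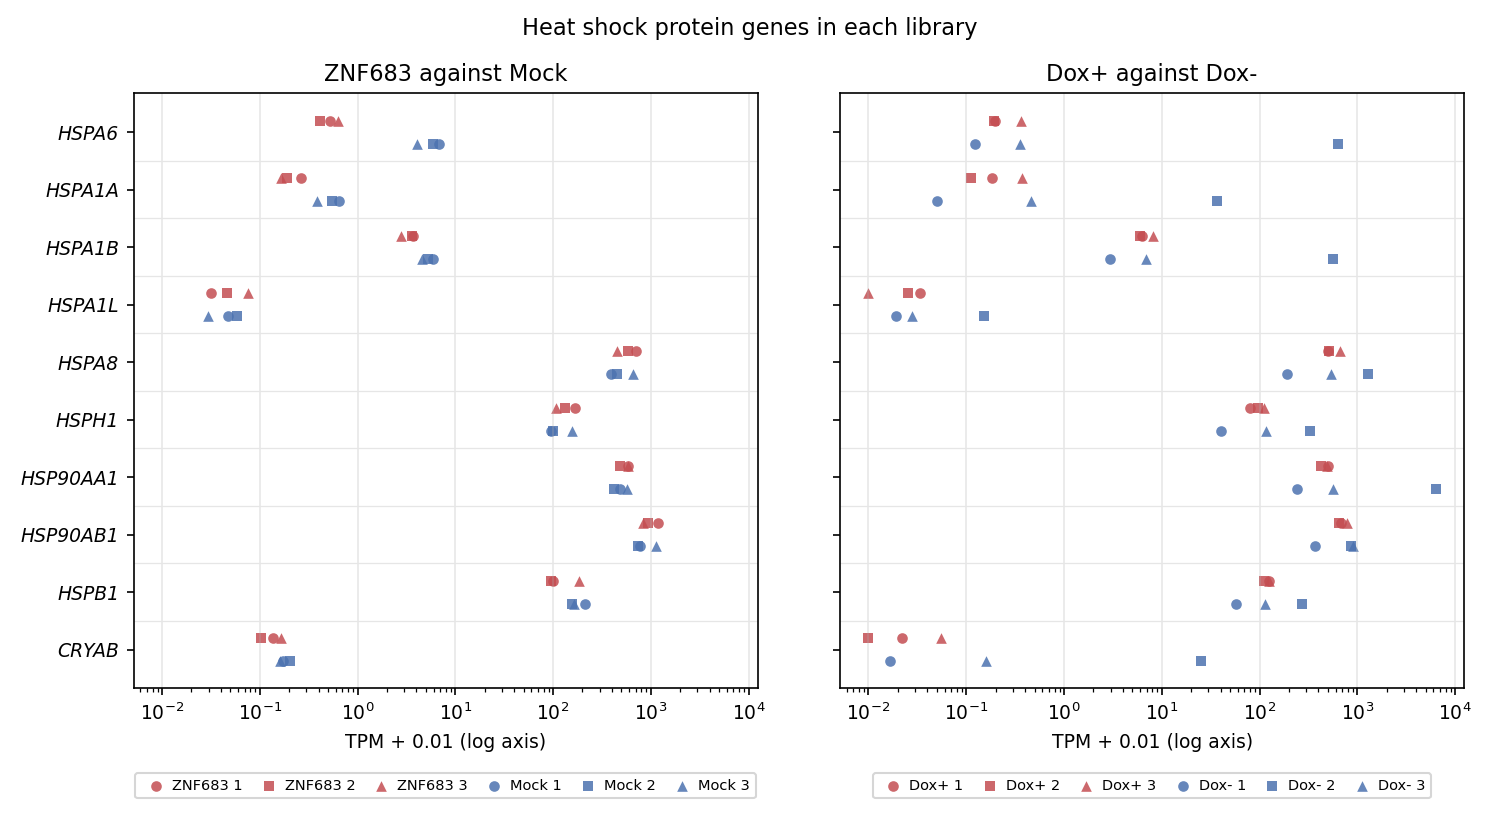
TPM of the 10 genes in each library, on a log axis with 0.01 TPM added so that values of 0 can be drawn. The left panel holds ZNF683 (red) and Mock (blue), the right panel Dox+ (red) and Dox- (blue), and the marker shape gives the library number. Mock HSPA6 lies at 4.06 to 6.85 TPM, above 0.399 to 0.618 TPM with ZNF683, and the blue squares of Dox- library 2 stand to the right for most genes.

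HSP90AA1 encodes the inducible HSP90 alpha (chromosome 14, 102080738 to 102139699) and HSP90AB1 the constitutive HSP90 beta (chromosome 6, 44246166 to 44253888). HSP90AA1 had 580, 483 and 584 TPM with ZNF683 and 484, 425 and 570 TPM in Mock, and 501, 424 and 494 TPM in Dox+ against 240, 6341 and 568 TPM in Dox-. It ranked 7th of all genes in Dox- library 2 and between 211 and 339 in the other 11 libraries. HSP90AB1 had 1188, 933 and 834 TPM with ZNF683 and 766, 740 and 1121 TPM in Mock, and 685, 647 and 779 TPM in Dox+ against 368, 861 and 913 TPM in Dox-. For HSP90AB1 the highest library of the doxycycline table was Dox- library 3 as deposited, and Dox- library 2 after median-of-ratios rescaling, at 862 against 763 rescaled TPM in library 3. HSP90AA1 over HSP90AB1 was 7.36 in Dox- library 2 and between 0.488 and 0.731 in the other 11 libraries. This ratio is taken within a library and does not depend on its scaling. Group differences of both genes were small beside their spread with ZNF683, at 0.16 ± 0.14 and 0.18 ± 0.20 on the log2 scale. For Dox+ minus Dox-, HSP90AA1 went from -1.01 to 0.35 and HSP90AB1 from 0.08 to 0.27 when Dox- library 2 was left out.

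The same kind of ratio set HSPA6 apart in Mock. HSPA6 over HSPA1B was 1.16, 1.13 and 0.890 in the Mock libraries and 0.140, 0.110 and 0.225 with ZNF683, with no overlap. It was 0.0301, 0.0309 and 0.0434 in Dox+ and 0.0383, 1.13 and 0.0492 in Dox-. The value of Dox- library 2 lay inside the range of Mock, with both genes at far higher TPM. The 2 tables were deposited apart, and levels set across them were not tested.

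**Figure D3:**
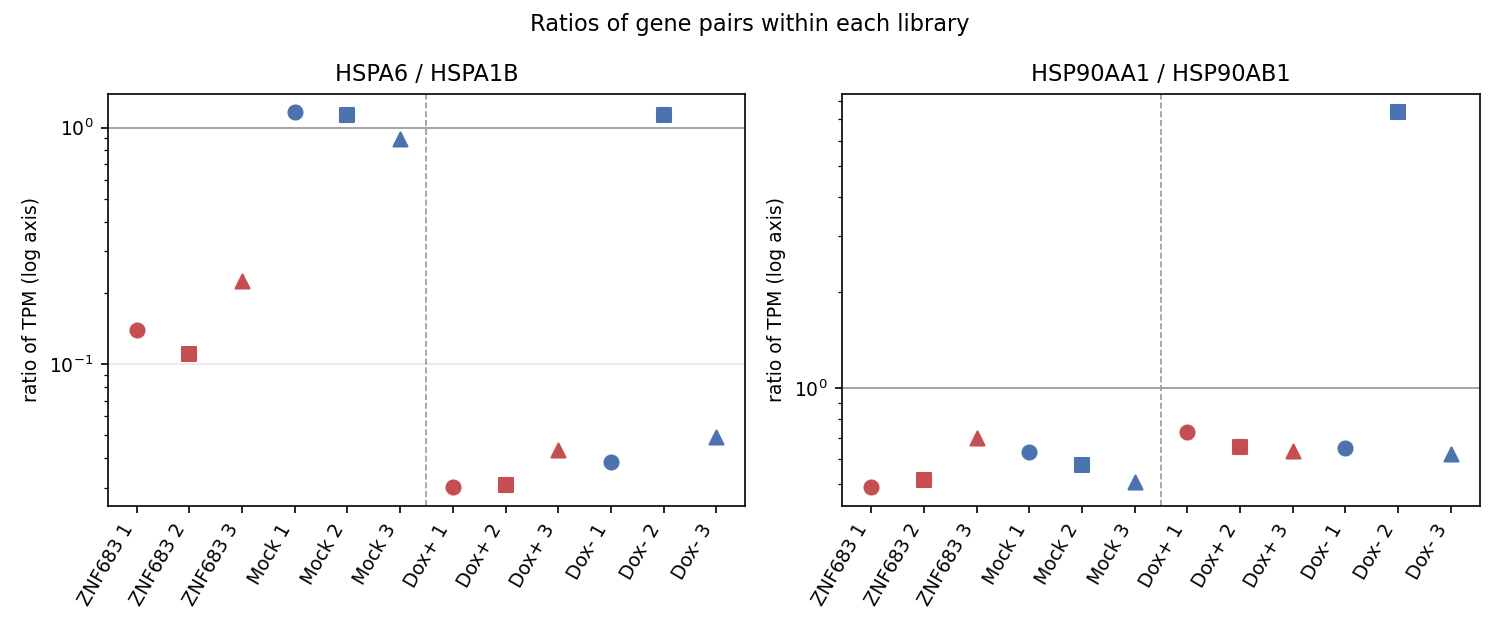
Ratio of TPM of HSPA6 over HSPA1B (left) and of HSP90AA1 over HSP90AB1 (right) in each of the 12 libraries, on log axes, with the 2 tables separated by a dashed line and equality drawn as a solid line. HSPA6 is near HSPA1B in Mock and in Dox- library 2, and HSP90AA1 exceeds HSP90AB1 in Dox- library 2, at 7.36.

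HSPB1 encodes HSP27 (chromosome 7, 76302544 to 76304295). It had 98.8, 94.3 and 184 TPM with ZNF683 and 214, 157 and 164 TPM in Mock. ZNF683 libraries 1 and 2 lay below all Mock libraries and library 3 inside their range, with a log2 difference of -0.56 ± 0.25. In Dox+ it had 124, 111 and 126 TPM and in Dox- 56.9, 271 and 114 TPM. Dox- library 2 was highest, and the log2 difference moved from -0.01 to 0.57 without it.

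CRYAB encodes alpha-B crystallin, a small heat shock protein of lens and muscle (chromosome 11, 111908565 to 111923722). It was between 0.0937 and 0.195 TPM in the 6 libraries of the ZNF683 table. In Dox+ it had 0.0119, 0 and 0.0456 TPM and in Dox- 0.00644, 25.4 and 0.148 TPM. Dox- library 2 was the only library of the 12 above 0.195 TPM, and the log2 difference of Dox+ minus Dox- was -1.62 with it and -0.08 without it. HSPB2, its divergent neighbour, was at 0 there.

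Counts over the 10 genes are given beside those of all genes. Of the 7 members that reached a mean of 1 TPM in the ZNF683 table and were tested, HSPA6 and HSPA1B were lower with ZNF683 without overlap and none was higher, where 8.51% of the 16588 genes tested were lower and 8.71% higher in that way. With limma at an adjusted p of 0.05, 1 member, HSPA6, was called lower, against 0.0121% of genes called lower and 0.0301% called in either direction. No member was called without ZNF683 library 2, without ZNF683 library 3, without Mock library 1 or without Mock library 2. The contrast was among those that chose these genes, and nothing is read from the count.

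Between Dox+ and Dox- all 10 genes had overlapping groups, as deposited and after rescaling, where 0.891% of the 15148 genes tested were lower and 7.91% higher in Dox+ without overlap. HSPA6, HSPA1A and CRYAB had passed the filter of 1 TPM through Dox- library 2 alone. Limma called 4 of 9 tested members lower, HSPA6, HSPA1A, HSPA1B and CRYAB, against 0.271% of genes called lower and 0.396% in either direction. Without Dox- library 2, HSPA6, HSPA1A and CRYAB fell below the filter and were not tested, and 0 of the 6 members tested were called. After median-of-ratios rescaling 0 were called, with log2 differences of -3.04 for HSPA6, -1.69 for HSPA1A, -2.06 for HSPA1B and -1.61 for CRYAB. Leaving out Dox- library 1 or 3 also left 0, with HSPA6 at -4.56 and -4.43, and leaving out any 1 Dox+ library left 1, HSPA6. This contrast too was among those that chose the genes. Without both Dox- libraries 1 and 2, an alternative chosen after the data were seen, only Dox- library 3 was left in its group. The log2 difference of HSPA6 was then -0.12.

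**Figure D4:**
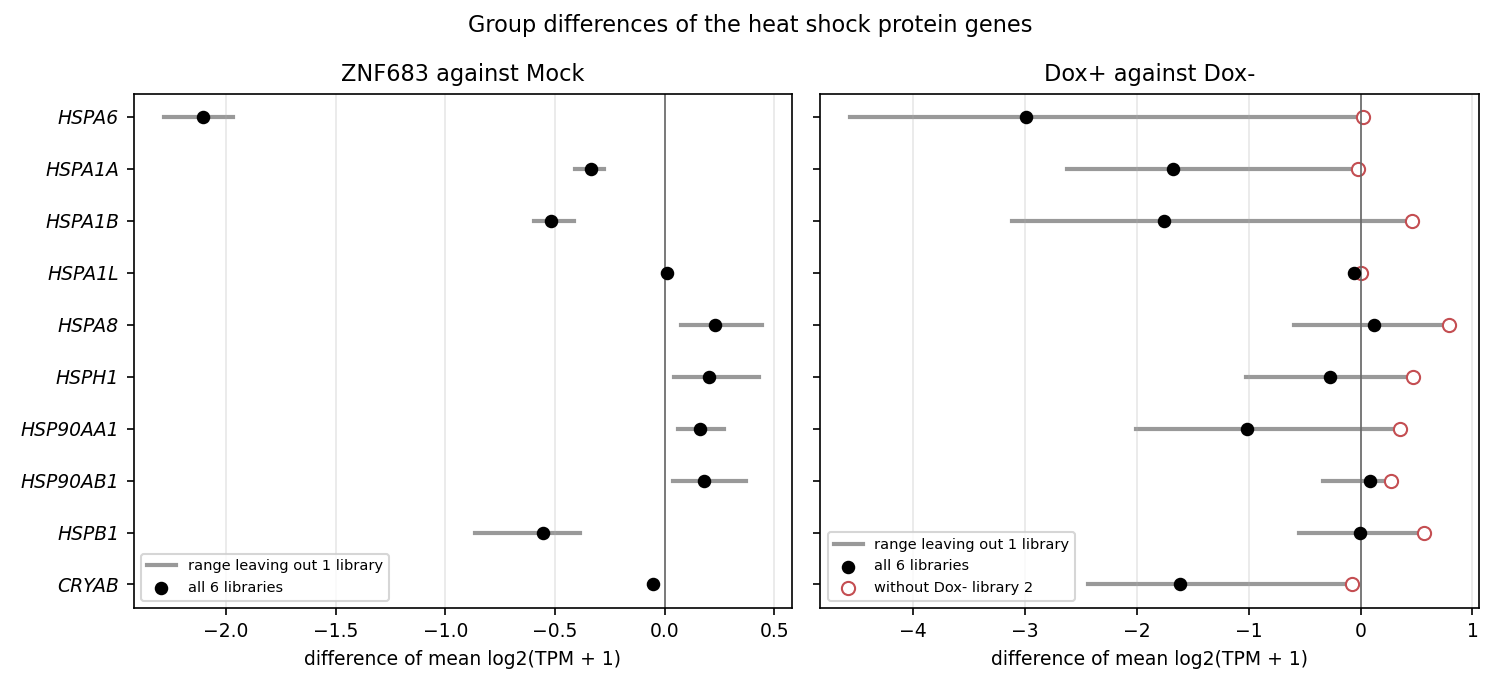
Difference of mean log2(TPM + 1) for each gene, ZNF683 minus Mock (left) and Dox+ minus Dox- (right). Black points use all 6 libraries, grey bars span the values with 1 library left out, and open red circles leave out Dox- library 2. HSPA6 stays near -2.11 on the left, and on the right moves from -2.99 to 0.02.

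Dox- library 2 was then compared with the other 5 libraries of its table, gene by gene on TPM + 1. For these counts a gene had to average 1 TPM over those other 5 libraries, a filter chosen after the data were seen, which 6 members and 14536 genes of all passed. HSPA6, HSPA1A and CRYAB did not and enter no count under this filter. Their ratios to the median of the other 5 libraries stand in the plot by list. Dox- library 2 was the highest library for 5 of the 6 members, where it was for 29.5% of all genes, and for 6 after median-of-ratios rescaling. It exceeded the next highest library by more than 2 times for 4 of the 6 (HSPA1B, HSPH1, HSP90AA1 and HSPB1), where it did for 4.82% of all genes, and for HSPA8 as well after rescaling. HSPA8 was at 1.98 times the next library as deposited. The median ratio to the median of the other 5 libraries was 2.95 over the 6 members and 0.895 over all genes. The members were chosen with this library in view, and nothing is read from the counts. Over all 15148 tested genes, no other library of the table held any member above 2 times the next under either scaling. In those libraries 0.0330% to 0.165% of these genes were that far above, against 6.46% in Dox- library 2. After rescaling the shares were 0.0264% to 0.416%, against 7.48%. Summed, the 10 genes were 1.04% of the TPM of Dox- library 2, 0.0900% of that of Dox- library 1 and 0.180% to 0.275% elsewhere.

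The rest of the heat shock network was read from 72 genes in lists of named families, without the 10. Of the 60 that averaged 1 TPM over the other 5 libraries, 17 were highest in Dox- library 2, or 28.3% against 29.5% of all genes, and 6 exceeded the next library by more than 2 times, or 10% against 4.82% of all genes. After rescaling 23 were highest and 6 exceeded it by that much, against 36.4% and 5.76% of all genes. The median ratio was 0.957, against 0.895 over all genes. The 6 were 2 of 15 co-chaperones and 4 of 8 other heat-inducible genes. Of those 8, UBB, DEDD2, MRPL18 and CLU lay inside the range of the other 5 libraries as deposited. After rescaling 6 of the 8 were highest in Dox- library 2. DNAJB1, the J-domain partner of inducible HSP70, was at 2907 TPM against 78.5 to 266 TPM in the other 5 libraries, and DNAJB4 at 45.5 against 8.0 to 15.5 TPM. SERPINH1, the collagen chaperone HSP47, was at 83.4 against 5.15 to 8.86 TPM. ZFAND2A, an arsenite- and heat-inducible zinc finger gene, was at 132 against 11.3 to 30.2 TPM. RGS2 was at 91.1 against 1.98 to 3.65 TPM. IER5, which averaged under 1 TPM in the other 5 libraries and is in none of these counts, was at 7.03 against 0.616 to 1.35 TPM.

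As deposited, none of 10 chaperonin genes was highest there, and after rescaling 1 was. Dox- library 2 was the lowest library for 0 of the 10 as deposited and for 4 after rescaling. It was lowest for 2488 and 5822 of all 15148 genes tested. HSPD1, the mitochondrial HSP60, was at 613 TPM, inside the range of 368 to 841 TPM of the others. None of 15 other HSP90 chaperone and co-chaperone genes and none of 7 other HSP70 and HSP110 genes exceeded the next library by more than 2 times under either scaling. Of the heat shock factors, HSF1 was at 144 TPM against 69.6 to 189 TPM, inside the range, and HSF4 at 12.7 against 2.98 to 7.46 TPM, above it. Genes of 1 family differed from each other in that library as deposited: HSP90AA1 was far above its range and HSP90AB1 inside it, and DNAJB1 was far above while DNAJA1, at 185 TPM, lay between 132 and 440 TPM. The lower end for DNAJA1 was Dox- library 1, with a size factor of 0.580 against 0.999 in Dox- library 2. Rescaling by the size factors puts Dox- library 2 lowest for DNAJA1.

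**Figure D5:**
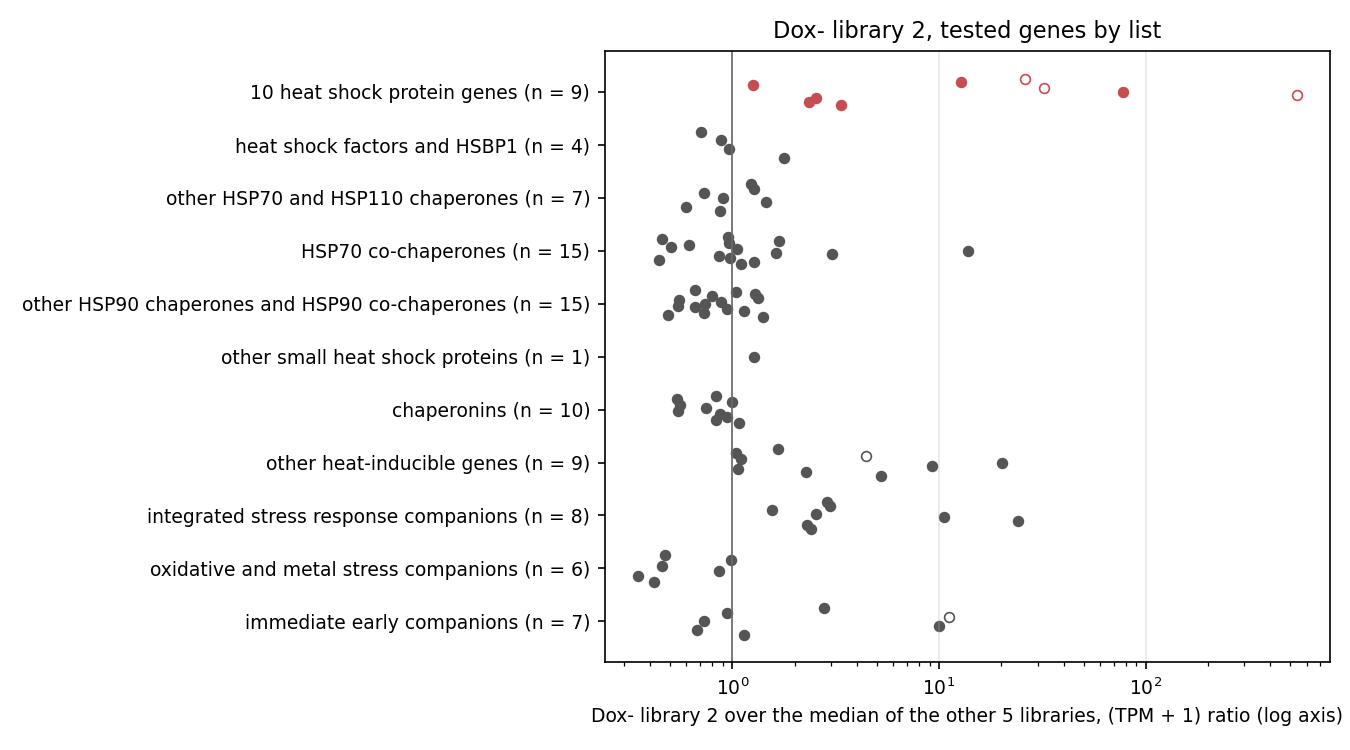
Level in Dox- library 2 divided by the median of the other 5 libraries of its table, on TPM + 1 and a log axis, for each tested gene (points) by list (rows). Open circles are genes that averaged under 1 TPM in those other 5 libraries. The vertical line marks equality. The members (red) reach 538 times for HSPA6, an open circle, and chaperonins lie between 0.542 and 1.08. Several other heat-inducible and integrated stress response genes lie to the right.

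Lists of companion stress genes were set beside them. Of 8 integrated stress response genes, 4 were more than 2 times above the next library in Dox- library 2, where 4.82% of all genes were, among them PPP1R15A, whose product helps to restart translation, at 334 against 5.72 to 13.1 TPM, and DDIT3, which encodes CHOP, at 171 against 12.5 to 22.1 TPM. Of 6 immediate early genes, 2 were, with JUN at 54.6 against 1.85 to 5.32 TPM and DUSP1 at 47.5 against 6.97 to 19.2 TPM. FOS, below 1 TPM in each of the other 5 libraries and so outside that count, was at 14.0 against 0.267 to 0.732 TPM. Of 6 oxidative and metal stress genes none was highest, where 29.5% of all genes were, and NQO1 was at 3.32 against 4.62 to 13.0 TPM.

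In that library the 3 fibroblast markers summed to 18.1 TPM, of which COL1A1 was 17, against 0.438 to 1.51 TPM in the other 5. The 3 B cell markers summed to 9.24 TPM there and to 11.8 to 29.95 TPM in the others. Myeloid, epithelial and erythroid markers each summed to at most 1.07 TPM in the doxycycline table, and no marker listed there was at 0 in every library. The part of these differences in the heat shock values was not tested.

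Between ZNF683 and Mock the network showed no call. Limma called 0 of 62 tested genes, with 4 at an unadjusted p under 0.05. Over all 16588 genes tested it called 5, with 2152 at an unadjusted p under 0.05. Without ZNF683 library 1 it called 1 network gene, STUB1, where 49 of all 16713 genes tested were called. The median log2 difference was 0.17, against 0.03 over all genes. Of the 62, 49 were positive (47 after rescaling), or 79.0% and 75.8%, against 54.9% and 49.9% of all genes. They included all 15 HSP90 chaperone and co-chaperone genes, 13 of 15 co-chaperones and 9 of 10 chaperonins, with 2 of 4 in the list of heat shock factors and HSBP1 (1 after rescaling) and 4 of 8 other heat-inducible genes (3 after rescaling). Among named genes, the nucleotide exchange factor BAG1 had 70.4, 105 and 86.4 TPM with ZNF683 and 46.1, 46.0 and 68.1 TPM in Mock (log2 difference 0.71 ± 0.19, limma adjusted p = 0.283). DNAJB1 had 300, 289 and 211 TPM with ZNF683 and 229, 228 and 301 TPM in Mock, with overlapping groups. CLU, which encodes the secreted chaperone clusterin, had 4.03, 3.34 and 3.65 TPM with ZNF683 and 4.97, 6.88 and 6.84 TPM in Mock (-0.62 ± 0.15, limma adjusted p = 0.272).

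Between Dox+ and Dox- limma called 0 of 61 network genes, with 1 at an unadjusted p under 0.05. Over all 15148 genes tested it called 60, with 960 at an unadjusted p under 0.05. Of the 61, 51 were positive as deposited and 28 after median-of-ratios rescaling, or 83.6% and 45.9%, against 79.1% and 49.8% of all genes. The median log2 differences were 0.35 and -0.01, near the 0.32 and 0.00 of all genes under the same scalings. Without Dox- library 3, limma called 11, or 18.0%, all higher in Dox+, where 18.4% of all genes were called. Without Dox- library 2, over the 60 network genes that averaged 1 TPM in the other 5 libraries, the median log2 difference was 0.45, against 0.39 over all genes.

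Likeness to the inducible pair was ranked among 9914 genes that averaged at least 5 TPM over the 6 libraries of the doxycycline table. The rank was by Pearson r of log2(TPM + 1) over these libraries with the mean of HSPA1A and HSPA1B. The 6 highest were RNA5SP494, GADD45B, IGFBP2, SNORD14E, RGS2 and PPP1R15A, at r from 0.994 to 0.999, and Dox- library 2 was the highest library for each. Over the other 5 libraries alone their r lay between 0.761 and 0.942. Those values were as deposited, and Dox- library 1 was the lowest of these libraries for all 6 genes, HSPA1A and HSPA1B. AL135790.1 lowers every other value in that library, and its part in this likeness was not tested. No r over all genes was computed for these 5 libraries. RNA5SP494 and SNORD14E passed the filter of 5 TPM through Dox- library 2 alone, with at most 1.19 and 1.96 TPM elsewhere in the table. In the whole ranking 136 genes had an r over 0.95. GADD45B, a growth arrest gene, had 5.18, 5.58 and 5.53 TPM in Dox+ and 3.52, 138 and 6.34 TPM in Dox-. With HSPA6 over the 6 libraries of the ZNF683 table, 10406 genes were ranked under the same filter, and 51 had an r over 0.95. The highest included TMX3, LYSMD3, PRPF8, NPIPB5 and UBR4, at r from 0.989 to 0.997. LYSMD3 had 14.8, 14.4 and 14.5 TPM with ZNF683 and 26.6, 28.2 and 23.1 TPM in Mock, and PRPF8, a core splicing factor gene, 83.7, 78.6 and 80.3 against 109, 106 and 101 TPM. These likenesses over 6 libraries in 2 groups are descriptions.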

How the data were processed

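The authors deposited 2 tables of TPM per gene symbol, 1 per comparison. Kallisto 0.46.0 and DESeq2 1.22.2 are named, without a role, in the submitters' processing notes. The build is not given in the sources used here. Groups came from the titles and genotype labels. The 10 genes and all gene lists were chosen with earlier results of these data known. Within each table, genes averaging 1 TPM or more over its 6 libraries were fitted on log2(TPM + 1) with limma 3.58.1 (R 4.3.3, empirical Bayes with a mean-variance trend, two-sided, Benjamini-Hochberg over all tested genes, threshold 0.05). The script was tested on simulated data. With unlimited prior degrees of freedom in the doxycycline table, 1 extreme library can carry a call there. Other chaperone and stress genes are named by the largest ratio of highest to second library in the doxycycline table (up to 4 per list) or the smallest p (up to 2 per list and table); some of those, and some genes of the likeness ranking, are not reported here. No 2 libraries of a table had an equal value above 0 in any gene, and their correlations were 0.898 to 0.992. Promoters are RefSeq windows on GRCh38.p14; positions of genes are from GENCODE v29, matched by symbol. Printed stretches reach 40 bases beyond the matching letters and stop at annotated exons, or hold at most 30 bases inside one. Alternatives were another pseudocount, filter, scaling, variance model, replicate block and each library left out.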

Additional observations from a re-analysis of the deposited data

How the results depend on the processing

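The differences of the 10 genes were recomputed 176 times under other settings. A move was set against the pooled SD of the libraries, which in the doxycycline table holds Dox- library 2 (3.69 for HSPA6, 2.03 for HSPA1A, 1.89 for CRYAB on the log2 scale), so a move under it is no sign of stability there. Without Dox- library 2, HSPA1A was at -0.03, CRYAB at -0.08 and HSP90AA1 at 0.35, and without Dox- libraries 1 and 2 HSPA6 was at -0.12. For Dox+ against Dox-, leaving out 1 library gave HSPA6 differences from -4.56 to 0.0191 and HSPA1B differences from -3.12 to 0.46. The lowest value of each was without Dox- library 1. The change of sign in each was without Dox- library 2, where the median log2 difference over all genes was 0.39. Moves over 1 pooled SD were 6, with a pseudocount of 0.1 (HSPA6 -3.21, HSPA1A -1.04, HSPA1L 0.06 and CRYAB -0.26 for ZNF683 against Mock, HSPA1L -0.37 for Dox+ against Dox-) and HSPA1A when summed with HSPA1B, at -0.57.

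For ZNF683 against Mock, 5 genes and 1 member were called. All genes called numbered 3 with a pseudocount of 0.1, 0 without a filter on low values, 0 with a mean of at least 5 TPM, 8 with robust limma, and 0 to 49 with 1 library left out (0 without Mock library 2, 49 without ZNF683 library 1). Members called numbered 0 without a filter, 0 with a mean of at least 5 TPM, which HSPA6 does not reach, and 0 to 1 with 1 library left out. Network genes called numbered 0 to 1 with 1 library left out. For Dox+ against Dox-, 60 genes and 4 members were called. All genes called numbered 0 without a filter, 15 with a mean of at least 5 TPM, 0 with median-of-ratios rescaling, 23 with robust limma, 0 to 2788 with 1 library left out (2788 without Dox- library 3), and 0 without Dox- libraries 1 and 2. Members called numbered 2 with a pseudocount of 0.1, 0 without a filter, 2 with a mean of at least 5 TPM, 0 with median-of-ratios rescaling, 0 with robust limma, and 0 to 1 with 1 library left out. Without Dox- library 2 only 6 members were tested, so HSPA6, HSPA1A and CRYAB could not be called there. Network genes called numbered 0 to 11 with 1 library left out. The cause of each was not tested.

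With the replicate number as a block, the calls were 0 genes and 0 members for ZNF683 against Mock and 34 genes and 1 member, HSPA6, for Dox+ against Dox-, and 0 network genes in each. Same-numbered libraries did not deviate together throughout (correlations of -0.21, 0.07 and -0.25, and 0.08, 0.05 and 0.36), so the replicate block pairs libraries by number only. With 3 libraries per group the smallest exact two-sided permutation p is 0.1. Depth is unknown, which limits every value under 1 TPM.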
